A study of Homo sapiens with 12 samples.

Results

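The genes described here encode the machinery that opens the G1 phase of the cell cycle: the D cyclins CCND1, CCND2 and CCND3, their kinases CDK4 and CDK6, the inhibitors CDKN1B (p27), CDKN1C (p57) and CDKN2C (p18), and the pocket proteins RB1 and RBL2 (p130). They were taken by gene symbol from a deposited table of raw counts, in which 10 of 63241 genes carry these symbols and 9 of the 10 could be tested. The samples are 12 libraries of ONS76 and DAOY, 2 lines of human medulloblastoma (a cerebellar tumour) labelled WT, all cultured in 6-well plates in artificial cerebrospinal fluid. The 4 groups of 3 libraries are ONS76 under fluid shear stress (FSS), static ONS76, DAOY under FSS and static DAOY. FSS plates were gyrated on an orbital shaker at 100 rpm for 18 h, and static plates were not shaken, so shear and anything else that shaking does cannot be told apart. The labels do not say whether replicates were separate cultures, and p-values cover only the spread among these libraries.

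In G1, a D cyclin binds CDK4 or CDK6, and the complex phosphorylates RB1 and its relatives, which then release E2F transcription factors to switch on S-phase genes. CDKN2C belongs to the INK4 family, which binds CDK4 and CDK6 and keeps cyclin away. CDKN1B and CDKN1C belong to the Cip/Kip family, which holds cyclin E or A with CDK2 inactive and can also sit on cyclin D complexes. RBL2 joins E2F4 and the MuvB proteins in resting cells to form a complex that represses cell-cycle genes. In the cerebellum, cyclin D1, cyclin D2 and CDK6 are known for their part in the growth of granule neuron precursors and of medulloblastoma.

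Library totals ran from 38.1 to 49.3 M counts (1 M is 1e6). Levels are given as CPM (counts per 1e6, scaled by TMM factors that even out library composition), and genes are compared with each other only in TPM (transcripts per 1e6), which is per gene length. The marker levels that follow are CPM of the library total, without TMM factors. Of 12 medulloblastoma and neural progenitor markers, 4 exceeded 1 CPM in each ONS76 group and 9 in each DAOY group, while SOX2 and NEUROD1 were listed at 0 in all 12 libraries. A 0 for any marker says only how the gene is listed, as described for CCND2 and CDK2 below. VIM was at 1107 to 1296 CPM in ONS76 and 1873 to 2254 CPM in DAOY. GLI1, a Hedgehog target, was below 1 CPM in every ONS76 library and at 9.56 to 13.5 CPM in DAOY. GLI2 of the same list was at 0.0465 to 0.374 CPM in ONS76 and 17.5 to 26.6 CPM in DAOY. PTCH1 was well above 1 CPM in both lines, at 35.3 to 41.6 CPM in ONS76 and 66.8 to 78.8 CPM in DAOY. The 4 leukocyte markers summed to at most 0.510 CPM and the 3 erythroid markers to at most 7.45 CPM. The 3 endothelial markers summed to 27.7 to 28.2 CPM in static ONS76 and 39.3 to 43.3 CPM under FSS, and to 5.36 to 8.06 CPM in static DAOY and 12.9 to 16.5 CPM under FSS. PECAM1 and CDH5 were higher under FSS in both lines, but VWF was not. VWF was at 1.99 to 2.69 CPM in static ONS76 and 1.45 to 1.83 CPM under FSS. In DAOY VWF was at 0.171 to 0.327 CPM in static libraries and 0.0224 to 0.254 CPM under FSS. None of these 3 was at 0 in all libraries, and their part in the results was not tested. Static ONS76 libraries 1 and 2 stood apart in the cardiac myosins MYH6 and MYH7: the 5 cardiac markers summed to between 0.0996 and 50.0 CPM in static ONS76 and to at most 0.578 CPM elsewhere, with TNNT2, ACTC1 and MYL7 at 0 in all 12. Where leaving out these 2 libraries ends a call in ONS76 among the 9 tested genes or the named pathway genes, or moves a count by over 1.5 times, both values are given.

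Promoter sequences from RefSeq (GRCh38.p14, 250 bases before to 50 after a transcript start) matched 7 of the 10 genes, with 13 entries. CCND1, CCND2 and CDKN1C had no entry in the set of promoters searched. The 2 kinases and CDKN1B are shown because the kinases moved differently under FSS and CDKN1B rose in both lines. Each sequence runs 5′ to 3′ on the strand of the gene, and capitals mark the E-box CACGTG, a palindrome that MYC with its partner MAX is known to bind. The CDK4 entry is chr12:57752261-57752560 (minus strand), the CDK6 entry chr7:92836524-92836823 (minus strand) and the CDKN1B entry chr12:12717118-12717417 (plus strand).
CDK4: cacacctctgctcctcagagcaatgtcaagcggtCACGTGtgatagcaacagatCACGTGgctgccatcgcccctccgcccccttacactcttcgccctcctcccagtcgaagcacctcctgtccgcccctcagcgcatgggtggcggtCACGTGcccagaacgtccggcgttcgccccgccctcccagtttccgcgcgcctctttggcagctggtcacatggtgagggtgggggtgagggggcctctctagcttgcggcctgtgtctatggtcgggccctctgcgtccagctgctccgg
CDK6: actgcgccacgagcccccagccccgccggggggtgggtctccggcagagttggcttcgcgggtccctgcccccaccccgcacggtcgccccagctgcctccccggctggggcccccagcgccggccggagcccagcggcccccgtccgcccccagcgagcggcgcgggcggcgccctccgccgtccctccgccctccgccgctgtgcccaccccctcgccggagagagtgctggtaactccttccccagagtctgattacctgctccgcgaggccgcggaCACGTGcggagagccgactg
CDKN1B: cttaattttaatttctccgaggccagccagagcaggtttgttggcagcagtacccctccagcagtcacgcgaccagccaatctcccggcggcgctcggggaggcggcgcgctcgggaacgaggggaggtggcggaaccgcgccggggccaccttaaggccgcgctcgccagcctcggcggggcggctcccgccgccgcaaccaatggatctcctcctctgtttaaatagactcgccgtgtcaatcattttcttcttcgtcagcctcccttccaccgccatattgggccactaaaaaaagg

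The CDK4 entry held 3 E-boxes, whose first bases lay at -216, -196 and -101 from the transcript start. At least 1 E-box was present in 7.26% of all 35116 promoter entries, and 3 or more in 0.0940%. The shown CDK6 entry had 1 E-box, after the start at 30, and the CDKN1B entry had none. Another CDK6 entry, chr7:92833910-92834209, is not shown and had 0 E-boxes. Of the 3 CDKN2C entries, 2 had 1 E-box each, at -220 and -69. The E2F words TTTCCCGC and TTTGGCGC, searched on both strands, were in none of the 13 entries and in 1.63% and 0.652% of all entries. The only RB1 entry, chr13:48476200-48476499, lies inside the gene, which starts at 48303726, so the sequence around that start was not searched. The FOXO word GTAAACA was in 1 CCND3 entry, at -2, and in 3.42% of all entries. These matches describe the letters of the windows.

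Under FSS all 3 inhibitors changed in both lines, and both detected D cyclins rose in DAOY. CDKN1B and CDKN1C rose and CDKN2C fell in both lines. In DAOY, CCND1, CCND3 and CDK6 rose as well and RBL2 fell. In ONS76, RBL2 rose and CDK4 fell. RB1 did not pass the test in either line. In all, 3 of the 9 tested genes rose and 2 fell in ONS76, where 14.1% of all 19631 tested genes rose, 13.9% fell and 28.0% changed in either direction. Without static ONS76 libraries 1 and 2, which leaves 1 static library, CDKN1C was at 0.58 and CDKN2C at -0.13, and both lost their calls. In DAOY, 5 of 9 rose and 2 fell, where 19.5% of tested genes rose, 20.1% fell and 39.7% changed. All calls are from edgeR's quasi-likelihood test at a threshold of 0.05 on Benjamini-Hochberg adjusted p, computed over all genes tested, and log2 fold changes are FSS minus static. In bulk RNA, fewer cells that express a gene and less RNA of it per cell cannot be told apart.

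**Figure D1:**
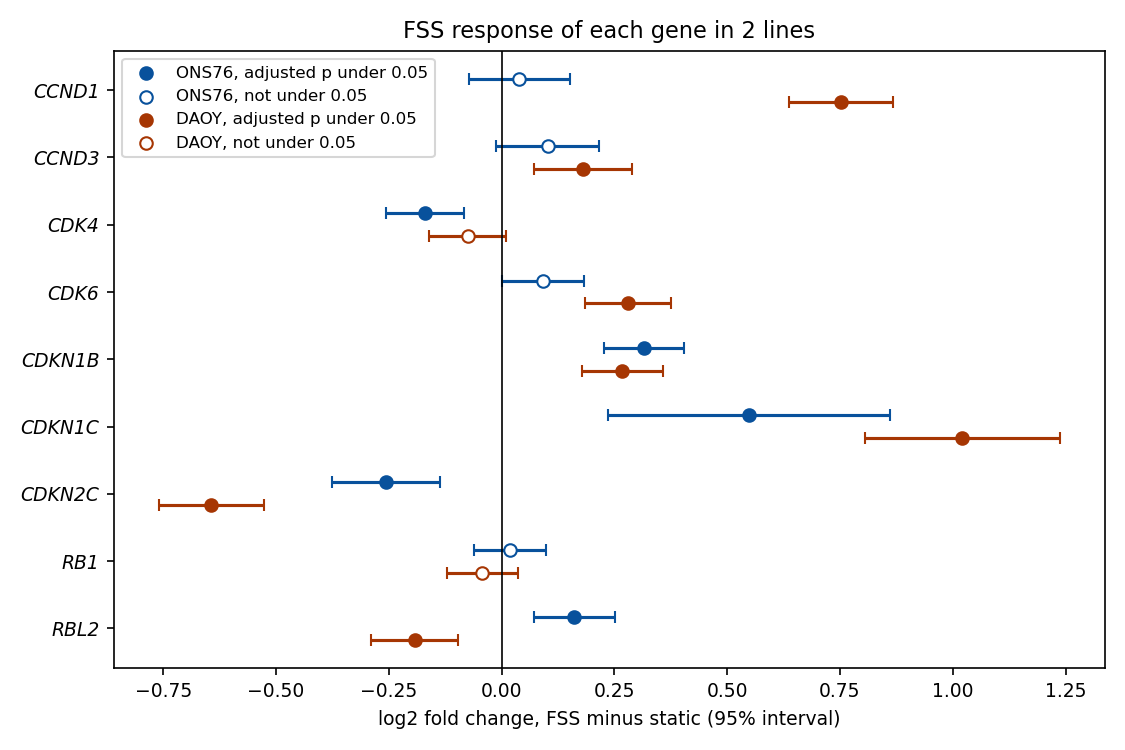
Log2 fold change of each gene under FSS, with its 95% interval, in ONS76 (blue) and DAOY (red). Filled points passed the adjusted p threshold of 0.05. CCND1 stands at 0.75 in DAOY and 0.04 in ONS76, and RBL2 lies on opposite sides of 0 in the 2 lines.

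CCND1 (cyclin D1, ENSG00000110092, chromosome 11, 69641087 to 69654474, plus strand, GRCh38) was the more abundant, per length, of the 2 D cyclins with counts. In DAOY it was at 95.3, 81.6 and 74.3 CPM in static libraries 1 to 3 and at 132, 143 and 149 CPM in FSS libraries 1 to 3. Every FSS library of DAOY lay above every static one. The log2 fold change was 0.75 (SE 0.056, adjusted p = 1.65e-12), with a 95% interval of 1.56 to 1.82 as a fold. In ONS76 it was at 173, 180.0 and 189 CPM in static libraries and at 185.7, 185.8 and 185.8 CPM under FSS. The 3 FSS values of ONS76 lay within the static range, and the log2 fold change was 0.04 (SE 0.055, adjusted p = 0.654), or -0.022 without static libraries 1 and 2. The response differed between the lines by 0.71 (SE 0.079, adjusted p = 4.26e-08), DAOY minus ONS76. Exons of the gene LTO1 on the other strand cover 10.3% of CCND1 exon bases, and the strand setting of the counting is not given in the sources used here.

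CCND2 (cyclin D2, ENSG00000118971, chromosome 12, 4273772 to 4305350, plus strand) was listed at 0 in every library and could not be tested. CDK2, a kinase that cycling cells use, was also listed at 0 throughout, so a 0 in this table says only how the gene is listed. The antisense gene CCND2-AS1 had 34 to 44 counts in the 6 DAOY libraries and 0 in the 6 ONS76 libraries.

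CCND3 (cyclin D3, ENSG00000112576, chromosome 6, 41934933 to 42050357, minus strand) was the less abundant of the 2 detected D cyclins. CCND3 in DAOY was at 37.3, 35.5 and 34.2 CPM in static libraries and at 41.1, 39.6 and 40.6 CPM under FSS. The groups did not overlap, and CCND3 rose by 0.18 (SE 0.053, adjusted p = 0.00694). CCND3 in ONS76 was at 28.3, 30.4 and 29.7 CPM in static libraries and at 31.7, 30.4 and 32.8 CPM under FSS. These ranges overlapped, and the log2 fold change of 0.10 (SE 0.056) did not pass the test (adjusted p = 0.180). The difference between the lines was 0.08, with a 95% interval of -0.08 to 0.23 (adjusted p = 0.553).

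Shares and sums of D cyclin TPM are over CCND1 and CCND3, since CCND2 was listed at 0. The CCND1 share was larger in every DAOY FSS library than in the static ones. It made up 56.9% ± 2.03 (SD, n = 3) of summed D cyclin TPM in static DAOY and 66.3% ± 1.60 under FSS, a difference of 9.43 percentage points (exact permutation test, two-sided, p = 0.1, the smallest that 3 against 3 allows). In ONS76 it made up 77.6% ± 0.642 in static libraries and 76.8% ± 0.681 under FSS (exact permutation test, p = 0.2). Summed D cyclin TPM was 121 ± 9.73 in static DAOY and 175 ± 7.62 under FSS, and 144 ± 7.16 in static ONS76 and 152 ± 3.59 under FSS. FSS and static sums did not overlap in either line (exact permutation test, p = 0.1 in each).

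**Figure D2:**
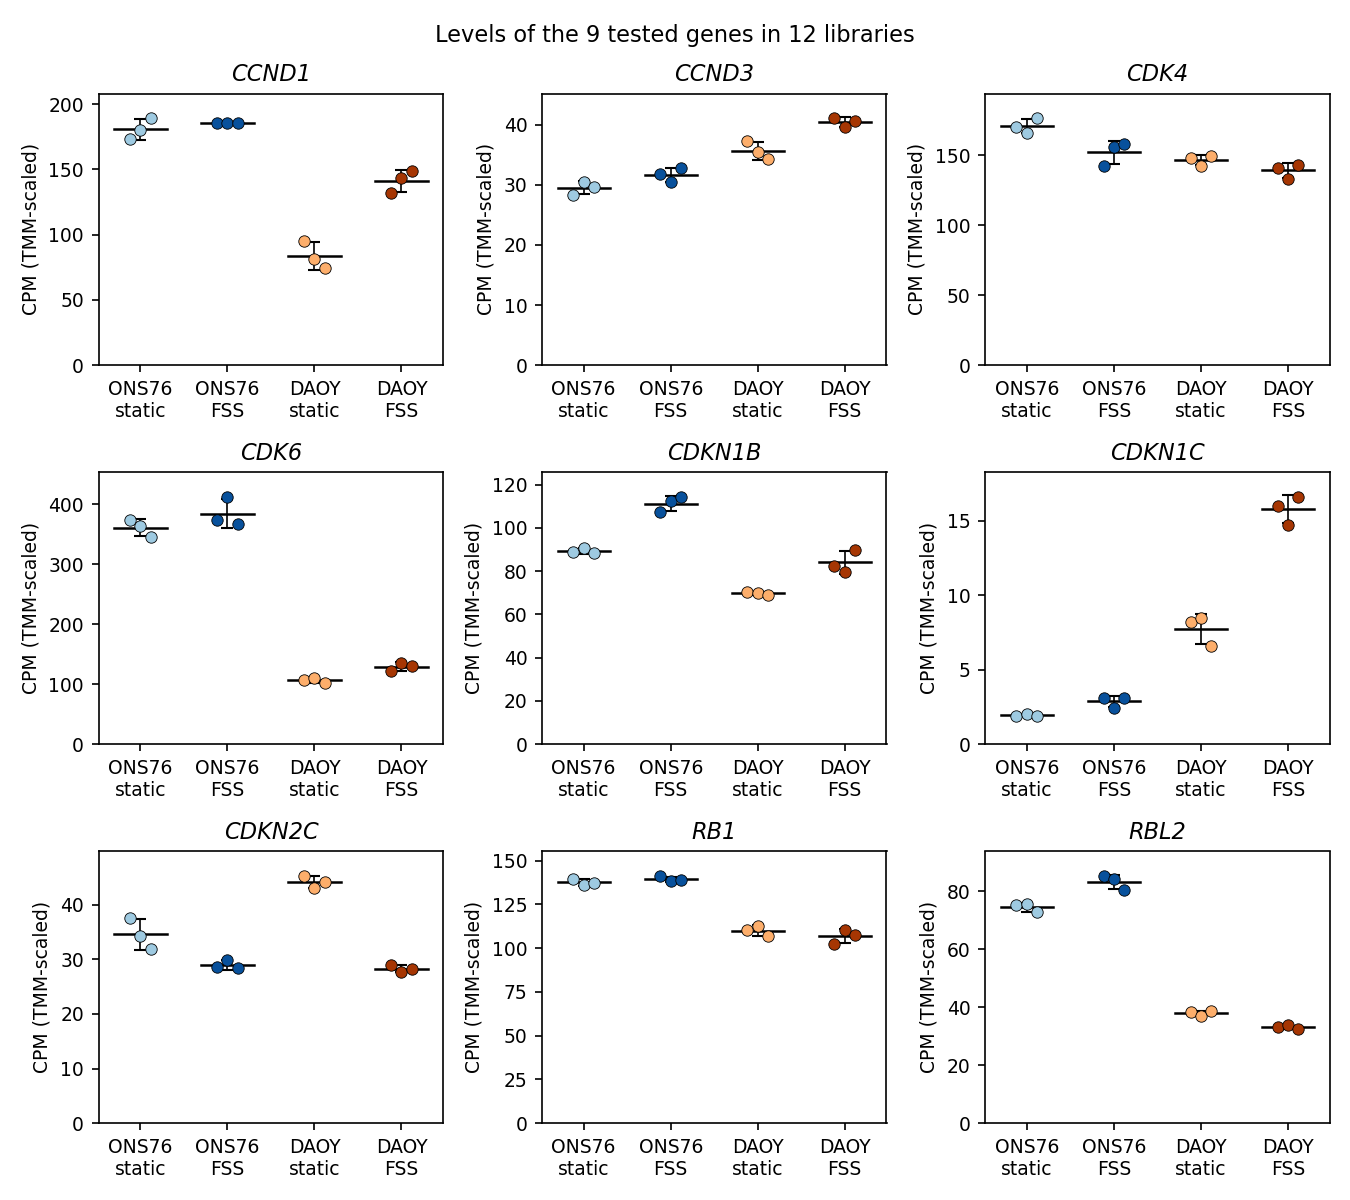
CPM of the 9 tested genes in each of 12 libraries (points) by group, with the group mean (bar) and SD (error bar), n = 3. The CDKN1C panel runs from about 1.91 CPM in static ONS76 to 16.6 CPM in DAOY under FSS, and the CCND1 panel shows static DAOY below the other 3 groups.

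CDK4 (ENSG00000135446, chromosome 12, 57747727 to 57756013, minus strand), the kinase partner of D cyclins with the promoter of 3 E-boxes above, fell in ONS76. It was at 170.3, 166 and 177 CPM in static ONS76 and at 142, 156 and 158 CPM under FSS, with no overlap. CDK4 fell by 0.17 on the log2 scale (SE 0.042, adjusted p = 0.00239). CDK4 in DAOY was at 148, 142 and 149 CPM in static libraries and at 141, 133 and 143 CPM under FSS. These ranges overlapped, and the log2 fold change of -0.08 (SE 0.042) did not pass the test (adjusted p = 0.164). The difference between the lines was 0.09, with a 95% interval of -0.03 to 0.22 (adjusted p = 0.304). Exons of TSPAN31 on the other strand cover 43.2% of CDK4 exon bases, so without the strand setting reads of the 2 genes may not be separable. TSPAN31 was at 16.9 to 19.4 CPM (not TMM-scaled) in ONS76, at 59.7 to 70.0 CPM in static DAOY and at 99.3 to 108 CPM in DAOY under FSS.

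CDK6 (ENSG00000105810, chromosome 7, 92604921 to 92836594, minus strand), the second partner kinase of D cyclins, rose in DAOY. It was at 107, 110.4 and 101 CPM in static DAOY and at 121, 135 and 130.4 CPM under FSS, with no overlap. CDK6 rose by 0.28 (SE 0.047, adjusted p = 1.07e-05). Values in ONS76 were 373, 363 and 346 CPM in static libraries and at 374, 412 and 367 CPM under FSS. The ONS76 ranges overlapped, and the log2 fold change was 0.09 (SE 0.045, adjusted p = 0.131). The difference of 0.19 between the lines (SE 0.064) passed the test with adjusted p = 0.0365. That call was lost in 8 of 12 fits that left out 1 library and in 3 other alternatives, with adjusted p from 0.00790 to 0.373 over all 21 alternatives. The 8 libraries were ONS76 FSS 1 and 3, ONS76 static 1 and 2, DAOY FSS 2 and 3 and DAOY static 1 and 3 (adjusted p = 0.0577 to 0.144).

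CDK4 was the more abundant kinase transcript per length. CDK6 made up 25.2% ± 1.21 of the summed TPM of both in static ONS76 and 28.8% ± 1.48 under FSS, and 10.4% ± 0.621 in static DAOY and 12.9% ± 0.957 under FSS. Libraries of the 2 conditions did not overlap within a line (exact permutation test, p = 0.1, the smallest possible). The sum of both was 321 ± 3.46 TPM in static ONS76 and 305 ± 9.27 TPM under FSS (exact permutation test, p = 0.1). It was 306 ± 5.30 TPM in static DAOY and 299 ± 6.49 TPM under FSS, with overlapping ranges (exact permutation test, p = 0.3).

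CDKN1B (p27, ENSG00000111276, chromosome 12, 12715058 to 12722371, plus strand) rose in both lines. CDKN1B in ONS76 was at 88.9, 90.9 and 88.3 CPM in static libraries and at 107, 112 and 114 CPM under FSS. CDKN1B in DAOY was at 70.3, 69.8 and 69.1 CPM in static libraries and at 82.5, 79.6 and 89.9 CPM under FSS. In both lines every FSS library lay above every static one. CDKN1B rose by 0.32 (SE 0.044, adjusted p = 1.01e-06) in ONS76 and by 0.27 (SE 0.044, adjusted p = 9.20e-06) in DAOY. The difference was -0.05, with a 95% interval of -0.17 to 0.08 (adjusted p = 0.666).

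CDKN1C (p57, ENSG00000129757, chromosome 11, 2883213 to 2885773, minus strand), an imprinted gene of the Cip/Kip family, had the largest log2 fold change of the 9 tested genes in each line. In DAOY it was at 8.19, 8.48 and 6.60 CPM in static libraries and at 16.0, 14.7 and 16.6 CPM under FSS. It rose by 1.02 (SE 0.11, adjusted p = 2.06e-09), with a 95% interval of 1.75 to 2.36 as a fold. In ONS76 it was at 1.91, 2.05 and 1.92 CPM in static libraries and at 3.11, 2.43 and 3.08 CPM under FSS, which rests on 69 to 118 counts a library. It rose by 0.55 (SE 0.15, adjusted p = 0.00642), and without static ONS76 libraries 1 and 2 the value was 0.58 with adjusted p = 0.0813. The 2 conditions did not overlap within a line. The difference of 0.47 between the lines (95% interval 0.09 to 0.85) did not pass the test (adjusted p = 0.0761). It passed with a stricter filter on low counts (0.50, adjusted p = 0.0479) and in limma on log2(TPM + 1) (0.54, adjusted p = 0.0185).

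CDKN2C (p18, ENSG00000123080, chromosome 1, 50960745 to 50974633, plus strand) was the one inhibitor of the 3 that fell. Values in DAOY were 45.2, 43.0 and 44.1 CPM in static libraries and at 28.9, 27.6 and 28.2 CPM under FSS. CDKN2C fell by 0.64 on the log2 scale in DAOY (SE 0.057, adjusted p = 7.43e-11). Values in ONS76 were 37.5, 34.2 and 31.9 CPM in static libraries and at 28.6, 29.9 and 28.3 CPM under FSS. The ONS76 groups did not overlap, with static library 3 the nearest to the FSS libraries, and CDKN2C fell by 0.26 (SE 0.059, adjusted p = 0.00106). Without static libraries 1 and 2, in which the ONS76 static group is library 3 alone, the value was -0.13 and the call was lost (adjusted p = 0.294). The fall was larger in DAOY, with a difference of -0.39 (SE 0.082, adjusted p = 0.000725).

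CDKN2C took a smaller share of the 3 inhibitors in FSS libraries than in static ones, and CDKN1B and CDKN1C larger shares. CDKN2C made up 43.1% ± 1.03 of their summed TPM in static DAOY and 26.1% ± 1.08 under FSS, and 35.4% ± 1.88 in static ONS76 and 26.9% ± 0.876 under FSS. CDKN1C made up 11.3% ± 1.32 in static DAOY and 21.9% ± 0.357 under FSS, and 3.02% ± 0.137 in static ONS76 and 4.00% ± 0.579 under FSS. CDKN1B made up 45.6% ± 0.554 in static DAOY and 52.0% ± 1.04 under FSS, and 61.5% ± 1.76 in static ONS76 and 69.1% ± 0.778 under FSS. The shares of a library make up the whole, so these 6 comparisons are not separate from each other. None of the 6 had overlapping libraries (exact permutation test, p = 0.1 in each, the smallest possible). The sum of the 3 was 123 ± 1.56 TPM in static DAOY and 129.8 ± 5.28 TPM under FSS, a ratio of 1.05. In ONS76 it was 87.7 ± 2.91 TPM and 98.9 ± 0.641 TPM, a ratio of 1.13.

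**Figure D3:**
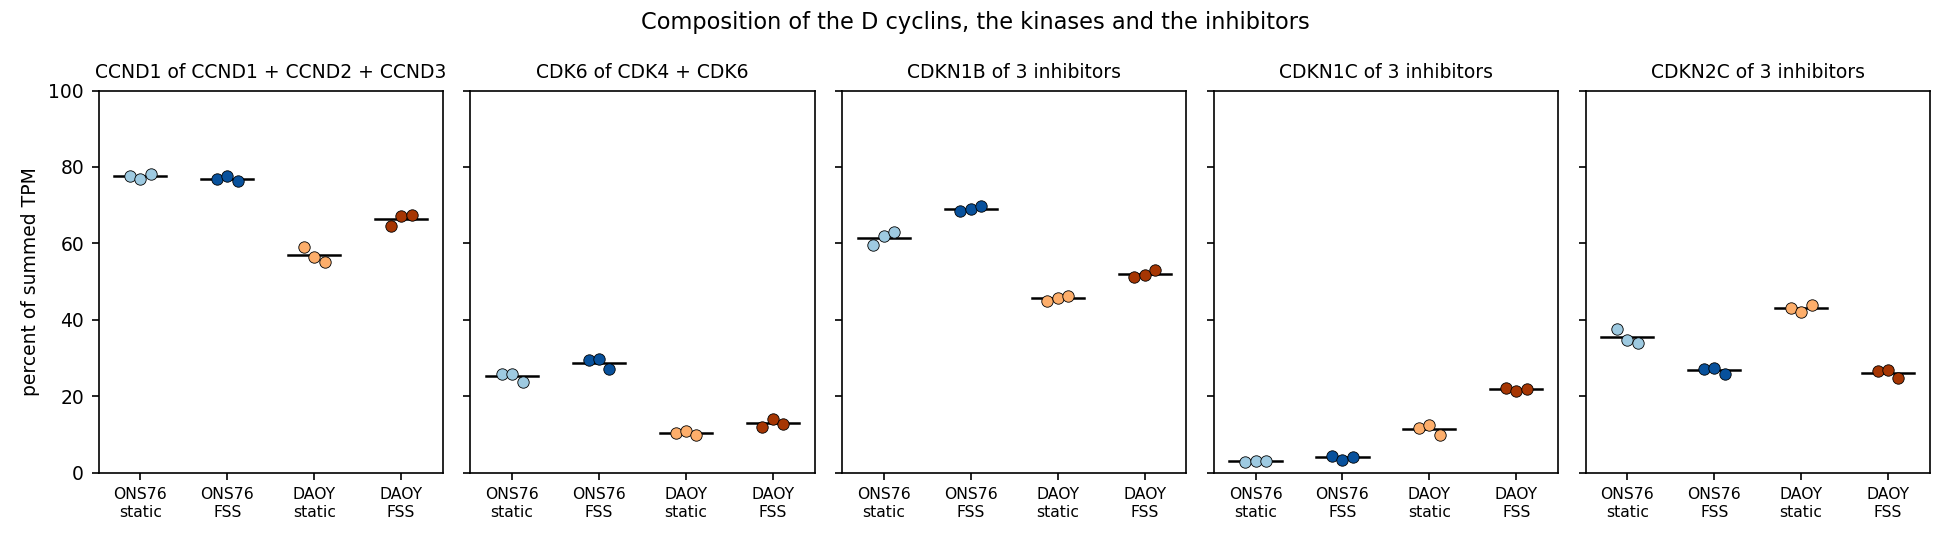
Share of each gene in the summed TPM of its set, in percent, for 12 libraries (points) with group means (bars), n = 3. The mean CCND1 share is 56.9% in static DAOY and 66.3% under FSS, and CDKN2C stands at 26.1% in DAOY and 26.9% in ONS76 under FSS.

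RB1 (ENSG00000139687, chromosome 13, 48303726 to 48599436, plus strand), the pocket protein that cyclin D complexes phosphorylate, was close to its static level. RB1 in ONS76 was at 139.7, 136 and 137 CPM in static libraries and at 141, 138 and 139 CPM under FSS. RB1 in DAOY was at 110.1, 113 and 107 CPM in static libraries and at 102, 110.3 and 107 CPM under FSS. The ranges overlapped in both lines. The 95% intervals of the log2 fold change were -0.06 to 0.10 in ONS76 (adjusted p = 0.781) and -0.12 to 0.04 in DAOY (adjusted p = 0.425).

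RBL2 (p130, ENSG00000103479, chromosome 16, 53433977 to 53491649, plus strand), the pocket protein of resting cells, moved in opposite directions in the 2 lines. Values in ONS76 were 75.1, 75.5 and 72.7 CPM in static libraries and at 85.2, 84.1 and 80.4 CPM under FSS, and it rose by 0.16 (SE 0.044, adjusted p = 0.00514). Values in DAOY were 38.2, 36.9 and 38.6 CPM in static libraries and at 33.1, 34.0 and 32.4 CPM under FSS, and RBL2 fell by 0.19 (SE 0.047, adjusted p = 0.00132). Within each line the 2 conditions were separate. The difference between the lines was -0.35 (SE 0.064, adjusted p = 0.000120). Exons of genes on the other strand cover 18.2% of RBL2 exon bases.

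In the test of the difference between the responses, 2 of 9 genes were higher in DAOY (CCND1 and CDK6) and 2 lower (CDKN2C and RBL2). Of all tested genes 8.34% were higher, 10.7% lower and 19.1% either.

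The other genes of the pathway were read from 8 lists, given as counts with no test of a list. Each count reads against the shares of all tested genes, of which 14.1% rose and 13.9% fell in ONS76 and 19.5% rose and 20.1% fell in DAOY. Counts given without static ONS76 libraries 1 and 2 come from another fit and do not read against these shares. Over all tested genes the median log2 fold change was 0.00 in both lines. Among other CDK inhibitors, 2 of 4 were tested, and CDKN2A and CDKN2B, the INK4 genes of chromosome 9, were listed at 0 in all 12 libraries. The antisense gene CDKN2B-AS1 beside them had 21 to 50 counts in ONS76 libraries and 0 in DAOY. CDKN1A (p21), a Cip/Kip inhibitor induced by p53, was at 187 to 208 CPM in static ONS76 and 273 to 294 CPM under FSS, and it rose by 0.54 (SE 0.049, adjusted p = 3.04e-10). In DAOY it was at 71.8 to 86.9 CPM in static libraries and 79.1 to 80.9 CPM under FSS, with a log2 fold change of 0.04 (SE 0.052, adjusted p = 0.618). CDKN2D (p19), an INK4 inhibitor, rose in DAOY by 0.23 (SE 0.091, adjusted p = 0.0391) and was at -0.17 in ONS76 (adjusted p = 0.162). Its ranges in DAOY overlapped, at 14.4 to 18.6 CPM in static libraries and 16.1 to 20.6 CPM under FSS. The CDKN2D call was lost in 7 of 22 alternatives, among them leaving out DAOY FSS library 1 or 3 or DAOY static library 2 or 3 (0.16 to 0.20, adjusted p = 0.138 to 0.232). Leaving out DAOY static library 1 put CDKN1A past the threshold in DAOY (0.12, adjusted p = 0.0490).

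Downstream of the pocket proteins, S-phase genes fell in both lines. Of 15 E2F target genes of S phase, 14 fell in ONS76 and 15 in DAOY, and 0 rose, with median log2 fold changes of -0.44 and -0.55. TK1, thymidine kinase, was at 137 to 139.7 CPM in static ONS76 and 75.8 to 79.3 CPM under FSS, and at 54.8 to 61.4 CPM in static DAOY and 22.8 to 25.4 CPM under FSS. The changes of TK1 were -0.82 (SE 0.045) and -1.26 (SE 0.050). RRM2, which makes deoxynucleotides as part of ribonucleotide reductase, changed by -0.76 (SE 0.047) and -0.98 (SE 0.044). Of RRM2 exon bases, 20.2% are covered by exons of AC007240.1 on the same strand. The exception in ONS76 was TYMS, thymidylate synthase, at -0.11 (adjusted p = 0.179). Exons of genes on the other strand cover 46.6% of TYMS exon bases.

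Among RBL1 and the E2F and DP factors, 10 of 11 were tested, with E2F8 listed at 0. In ONS76 1 rose and 5 fell, and in DAOY 2 rose and 6 fell, with medians of -0.10 and -0.12. Without static ONS76 libraries 1 and 2, 3 fell in ONS76. E2F1, an activator that is itself an E2F target, was at 31.1 to 33.4 CPM in static ONS76 and 18.4 to 19.7 CPM under FSS, a change of -0.76 (SE 0.063). In DAOY E2F1 was at 25.4 to 27.6 CPM in static libraries and 13.7 to 14.1 CPM under FSS, a change of -0.93 (SE 0.065). E2F2, a second activator, changed by -0.55 (SE 0.088) in ONS76 and -0.78 (SE 0.069) in DAOY. E2F5, a repressor-class factor named after its values were seen, rose in both lines, by 0.28 and 0.32.

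In the MuvB list, 6 of 7 were tested, with LIN37 listed at 0, and LIN9, MYBL2 and FOXM1 fell in each line while 0 rose (medians -0.11 in ONS76 and -0.23 in DAOY). MYBL2, which joins MuvB in cycling cells, changed by -0.89 (SE 0.049) in ONS76 and -0.80 (SE 0.048) in DAOY. LIN9, a core MuvB subunit, changed by -0.31 and -0.39, and FOXM1, a mitotic activator, by -0.14 and -0.48. In ONS76 the FOXM1 call was lost without static libraries 1 and 2 (-0.091, adjusted p = 0.410), which left 2 of the 6 lower, and in 6 other alternatives, 4 of which left out ONS76 FSS library 2 or 3 or static library 1 or 2 (-0.14 to -0.11, adjusted p = 0.0517 to 0.114). In the cyclin E, cyclin A and CDK2 list, 4 of 5 were tested, and 3 fell in ONS76 and 2 in DAOY while 0 rose (medians -0.32 and -0.25). Cyclin A2 (CCNA2) changed by -0.52 (SE 0.051) and -0.55 (SE 0.045), and cyclin E2 (CCNE2) by -0.43 (SE 0.14) and -0.75 (SE 0.14). Exons of genes on the other strand, mostly INTS8, cover 37.1% of CCNE2 exon bases. INTS8 had 48430 counts over the 12 libraries and CCNE2 had 2769, so without the strand setting their reads may not be separable. Without static ONS76 libraries 1 and 2, 1 of the 4 fell in ONS76, and CCNE2 was at -0.45 (adjusted p = 0.110). The CCNE2 call in ONS76 was also lost without FSS library 1 (-0.26, adjusted p = 0.179), without static library 2 (-0.36, adjusted p = 0.0926) and on both TPM scales, log2(TPM + 1) and log2(TPM + 0.1).

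**Figure D4:**
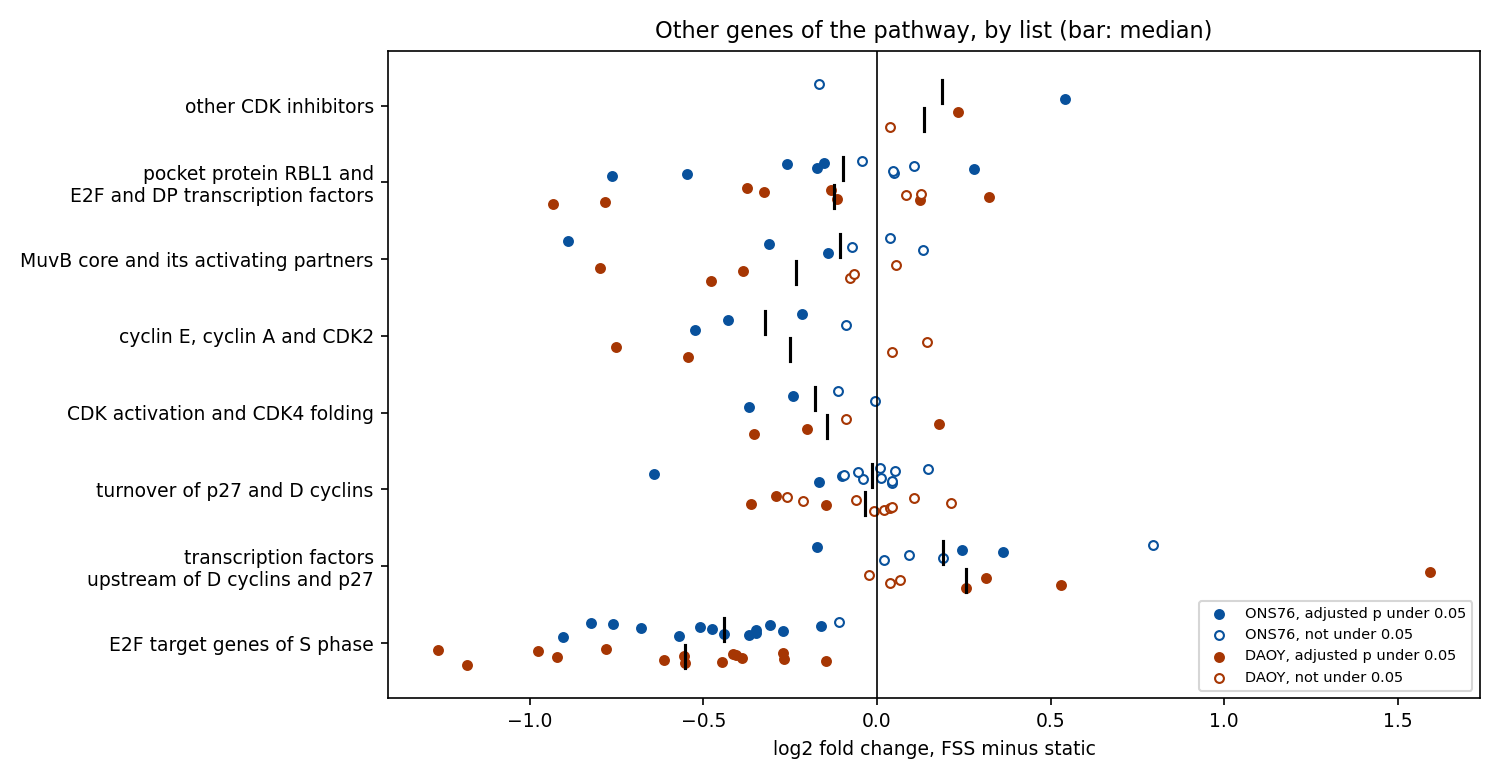
Log2 fold change under FSS of each tested gene in the 8 pathway lists, ONS76 (blue) above DAOY (red), filled where adjusted p was under 0.05, with list medians as black bars. The E2F target list lies below 0 in both lines, with medians of -0.44 and -0.55. The point at 1.59 is MYCN in DAOY.

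Of the 4 genes of CDK activation and CDK4 folding, 2 fell in ONS76, and in DAOY 1 rose and 2 fell (medians -0.18 and -0.14). CDK7, the catalytic subunit of the kinase that activates CDKs, was at 109 to 118 CPM in static ONS76 and 93.0 to 98.8 CPM under FSS, a change of -0.24 (SE 0.042, adjusted p = 3.27e-05). In DAOY CDK7 was at 82.0 to 85.9 CPM in static libraries and 93.0 to 96.6 CPM under FSS, and it rose by 0.18 (SE 0.042, adjusted p = 0.000894). Cyclin H (CCNH), its partner, changed by -0.37 and -0.35. Of CCNH exon bases, 22.3% are covered by exons of genes on the other strand. CDC37, the HSP90 cochaperone that helps fold CDK4, was at -0.01 in ONS76 (adjusted p = 0.938) and fell in DAOY, at -0.20 (adjusted p = 9.32e-05).

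Of 12 genes of p27 and D cyclin turnover, 0 rose and 3 fell in each line, with medians of -0.02 and -0.04, where 13.9% of all tested genes fell in ONS76 and 20.1% in DAOY. SKP2, the F-box protein that marks p27 for degradation, was at 22.4 to 24.9 CPM in static DAOY and 18.4 to 20.6 CPM under FSS, a change of -0.29 (SE 0.068, adjusted p = 0.000782). In ONS76 SKP2 was at 0.01 (SE 0.068, adjusted p = 0.969). CKS1B, the SKP2 cofactor, fell in ONS76, at -0.17 (adjusted p = 0.00584), and was at 0.02 in DAOY (adjusted p = 0.764). Its ONS76 call was lost without FSS library 1 (-0.12, adjusted p = 0.0739) and without static library 3 (-0.13, adjusted p = 0.0626). DDB1, an adaptor of CUL4 ligases, changed by -0.10 in ONS76 (adjusted p = 0.0395) and -0.36 in DAOY. The DDB1 call in ONS76 was lost in 10 of 22 alternatives: without static ONS76 libraries 1 and 2 (-0.14, adjusted p = 0.0561, with 2 of the 12 genes lower), in 6 fits without 1 library (ONS76 FSS 1, 2 or 3, ONS76 static 1 or 3, or DAOY static 2, adjusted p = 0.0513 to 0.185), with upper-quartile scaling and on both TPM scales. FBXO4, an F-box protein linked to cyclin D1, fell in ONS76, at -0.64 (SE 0.14, adjusted p = 0.000502), and was at -0.21 in DAOY (adjusted p = 0.213).

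Of 7 transcription factors upstream of D cyclins and p27, 2 rose and 1 fell in ONS76, and 4 rose and 0 fell in DAOY (medians 0.19 and 0.26). JUN, an AP-1 subunit, rose by 0.24 (SE 0.053) in ONS76 and 0.32 (SE 0.049) in DAOY. FOSL1, its partner, rose in DAOY by 0.26 (SE 0.060, adjusted p = 0.000854) and was at 0.02 in ONS76 (adjusted p = 0.865). FOXO4, a factor that can induce p27, rose in ONS76 by 0.36 (SE 0.075, adjusted p = 0.000331) and was at 0.07 in DAOY (adjusted p = 0.517). Named after their values were seen, MYC was the gene that fell in ONS76, a call lost on both TPM scales, and MYCN was at 0.272 to 0.580 CPM in static DAOY and 1.22 to 1.52 CPM under FSS, with at most 2 counts in any ONS76 library.

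The genes most like each member were found by Pearson r of log2 CPM over 12 libraries after subtracting each line's mean, among 10455 genes. The libraries share their FSS and static grouping, so these values describe the order of the libraries and carry no test. For CCND1, CD164, a sialomucin gene and 1 of its 2 most like genes, had r = 0.982. CD164 rose by 0.23 (SE 0.035) in DAOY and was at 0.03 (adjusted p = 0.630) in ONS76. CDKN1C was most like VGLL4, a TEAD cofactor, at 0.990, and the kinase gene MAP3K12, at 0.979. CDKN2C was most like PTPRA, a receptor phosphatase, at 0.990, and CNTRL, which encodes the centrosome protein centriolin, at 0.988.

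CDKN1B was most like SMAD6, an inhibitory SMAD, at 0.977, and SAP30L, at 0.975. CDK4 was most like CLIC1 at 0.976 and the proteasome gene PSMB4 at 0.963, and CDK6 most like the cohesin regulator PDS5A at 0.971 and SKIL at 0.962. RBL2 was most like COL4A6, a basement membrane collagen chain, at 0.968, and the phosphatase gene PTPN13 at 0.966. COL4A6 rose by 0.80 (SE 0.053) in ONS76 and was at -0.88 (SE 0.084) in DAOY. CCND3 was most like FAM32A at 0.954 and CTCF at 0.942. RB1 had the lowest values, with RICTOR at 0.845 and ATM at 0.834.

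Between the static lines, CDK6 and CDKN1C differed most. In static ONS76 against static DAOY, 6 of the 9 tested genes were higher (CCND1, CDK4, CDK6, CDKN1B, RB1 and RBL2) and 3 lower (CCND3, CDKN1C and CDKN2C). Of all tested genes 37.9% were higher, 43.2% lower and 81.0% either, so most genes differ between the lines. CDK6 was higher in ONS76 by 1.76 (SE 0.047, adjusted p = 2.76e-26), CCND1 by 1.11 (SE 0.056) and RBL2 by 0.97 (SE 0.046). CDKN1C was at -1.98 (SE 0.13, adjusted p = 4.93e-15), CDKN2C at -0.35 (SE 0.057) and CCND3 at -0.28 (SE 0.055). These 6 kept their direction and their call in all 21 alternatives, but the sizes moved: CCND1 ranged from 0.69 to 1.21, CDK6 from 1.32 to 1.80 and RBL2 from 0.54 to 0.99. CDKN1C ranged from -2.35 to -1.92, CDKN2C from -0.77 to -0.29 and CCND3 from -0.69 to -0.24.

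The other 3 depended on the scale. The median of all tested genes in this comparison was -0.10 with TMM, -0.16 with RLE, -0.32 with upper-quartile scaling and -0.33 on log2(TPM + 1). CDK4 was at 0.22 (adjusted p = 1.64e-05) with TMM, at 0.00103 with upper-quartile scaling and at -0.19 on log2(TPM + 1). CDKN1B was at 0.36 and RB1 at 0.32 with TMM, and at -0.057 and -0.090 on log2(TPM + 1). The split of all calls moved too, from 7433 higher and 8475 lower with TMM to 5077 and 11005 on log2(TPM + 1). In mean TPM, RB1 was at 75.5 in static ONS76 and 80.5 in static DAOY, and CDKN1B at 54.0 and 56.2.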

How the data were processed

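RNA was measured in 12 libraries. Sample titles gave the group and replicate number of each. Per the labels' protocols, directional polyA libraries were sequenced as paired reads. Per the submitters' processing notes, the tools were HISAT2 2.2.1 and featureCounts and the build was GRCh38. The annotation and the strand and overlap rules of the counting are unknown here. The authors deposited raw counts per gene and a table of TPM values. TPM equalled count over a fixed gene length, rescaled per library, to within 0.1% for 100% of 13462 genes compared, so both tables hold the same measurement. Reads shared by overlapping genes may be lost or misassigned.

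Counts were tested in edgeR 4.0.16 (R 4.3.3): filterByExpr kept 19631 genes with 99.96% of counts, TMM factors scaled the libraries, and a quasi-likelihood model with 1 mean per group was fitted to all 12 libraries. Two-sided p-values were adjusted by Benjamini-Hochberg over all genes tested, with 0.05 as the threshold. SE was taken as |log2 fold change| over the square root of F. Likeness used log2 CPM with a prior count of 2 and genes at 5 CPM or more. Replicate pairs differed beyond counting noise, with chi-square per degree of freedom between 3.74 and 9.25. The test was tried on simulated data, with changes planted only in genes that both static groups express. Intervals cover the spread between libraries.

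Alternatives were RLE and upper-quartile scaling, no filter, a filter at 5 CPM in 3 libraries, DESeq2 1.42.0, limma 3.58.1 on log2(TPM + 1) and log2(TPM + 0.1), a replicate block, each line alone, leaving out static ONS76 libraries 1 and 2 together, and leaving out each library. The pathway lists were run under them after the data were seen. Named genes were all 10 members, the 2 genes of each list with the smallest p in each line, and the 2 genes most like each member. Results of 1 gene that the rule takes are left out. The members and lists were chosen with earlier results of these data known. Coordinates and exon overlap are from GENCODE 29 (GRCh38), possibly not the one used for counting, and promoters are from RefSeq (GRCh38.p14). The gene lengths behind TPM did not follow the exon bases of GENCODE 29. In static ONS76, CCND3 (5802 exon bases) averaged 29.5 CPM and 32.25 TPM, and CDKN1B (2811 exon bases) 89.4 CPM and 54.0 TPM. Shares and rankings in TPM therefore rest on the deposited lengths, and the overlap percentages may not hold for the genes as counted.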

Additional observations from a re-analysis of the deposited data

Results flagged for a closer look

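The FSS response differed between the lines, by the test of the difference itself (edgeR, DAOY minus ONS76, log2), in 4 of the 9 tested genes, where 19.1% of all tested genes differed. The difference was 0.71 for CCND1, 0.19 for CDK6, -0.39 for CDKN2C and -0.35 for RBL2. The CDK6 call was lost in 11 of 21 alternatives, with adjusted p up to 0.373. Among the named pathway genes, the inhibitors CDKN1A and CDKN2D differed by -0.50 (adjusted p = 3.13e-06) and 0.40 (adjusted p = 0.0219). CDK7 differed by 0.42, FOXM1 by -0.34 and CDC37 by -0.19. In the turnover list, SKP2 differed by -0.30, DDB1 by -0.26 and CKS1B by 0.19. Of the upstream factors, FOXO4 differed by -0.30 and FOSL1 by 0.24, with adjusted p of 0.0448 and 0.0449. The S-phase genes TK1 and RRM2 differed by -0.44 and -0.22. Of these pathway genes, FOSL1 lost its call in 15 of 21 alternatives (adjusted p up to 0.175), FOXO4 in 11 (up to 0.131), CDKN2D and CKS1B in 9 each (up to 0.0856 and 0.154), SKP2 in 6 (up to 0.0998), RRM2 in 2 (up to 0.148) and CDC37 in 1 (0.0983). Without static ONS76 libraries 1 and 2, the calls of CDKN2D, CDC37, SKP2, FOSL1 and RRM2 were lost. Leaving out any 1 of 9 libraries ended the FOSL1 call (the exceptions were ONS76 FSS 1, DAOY FSS 1 and DAOY static 1), and any 1 of 9 the FOXO4 call (the exceptions were ONS76 static 1, DAOY FSS 1 and DAOY static 1). The CDKN2D call was lost without ONS76 FSS 2, ONS76 static 1, DAOY FSS 1 or 3, or DAOY static 2 or 3. The CKS1B call was lost without ONS76 FSS 1, ONS76 static 1 or 3, DAOY FSS 1 or 3, or DAOY static 2 or 3. SKP2 lost its call without ONS76 FSS 1, DAOY FSS 3 or DAOY static 3, and RRM2 without ONS76 FSS 2.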

How the results depend on the processing

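Some alternatives left out only libraries of 1 line, so they could change values of the other line little. In DAOY, all 198 values of the 9 genes under the alternatives kept their direction and their side of the threshold. In ONS76, 195 of 198 did: without static libraries 1 and 2, CCND1 was at -0.022, and CDKN1C and CDKN2C lost their calls, which left 1 gene lower and 3376 genes called in all, against 5505. That fit rests on 1 static library, assumed to vary like the others. For the difference between the lines, 1 gene was higher, in place of 2, on log2(TPM + 0.1), without static ONS76 libraries 1 and 2, and in 8 fits that left out a library (range 1 to 2), because CDK6 lost its call. Between static lines, log2(TPM + 1) and log2(TPM + 0.1) put CDK4 at -0.19 and -0.19, CDKN1B at -0.057 and -0.058 and RB1 at -0.090 and -0.091, with 3 genes higher and 5 lower, and the stricter filter, which tests 11619 genes, called 10395. The CDK6 share was higher under FSS by 6.07 percentage points in DAOY with CPM in place of TPM, against 2.53, since TPM divides by length. The named pathway genes were run under the same alternatives, a choice made after seeing the data. Direction and side of the threshold held in 495 of 528 values in ONS76 and 495 of 505 in DAOY. For the called differences between the lines, they held in 199 of 252. Most of these genes were picked for a small p in these same data, which favours calls that hold. The 9 values that changed sign were of genes near 0. CDC37 in ONS76 was at 0.0047 with upper-quartile scaling, 0.018 on both TPM scales and -0.020 to 0.018 without 1 ONS76 library. Without 1 library of its line, SKP2 was at -0.043 to 0.050 and FOSL1 at -0.015 to 0.068 in ONS76, and CDKN1A at -0.020 to 0.12 and CKS1B at -0.018 to 0.050 in DAOY. After subtracting group means, same-numbered FSS and static libraries of a line correlated at -0.03 to 0.08, and differently numbered ones at -0.09 to 0.06. With 3 libraries a group, these values cannot settle whether replicate numbers pair the samples. With the replicate block, 5397 genes were called in ONS76, 7667 in DAOY, 3693 for the difference and 15795 between static lines, with the same numbers of members called. Depth limits CDKN1C in ONS76, at 69 to 118 counts a library, and the 3 libraries a group limit exact tests to p = 0.1.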
